A study of Rattus norvegicus with 10 samples.

Results

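The enzymes that oxidise ethanol and acetaldehyde were described in the livers of Eisai hyperbilirubinemic rats (EHBR) and Sprague-Dawley (SD) rats. Members were the genes with the symbols Adh1, Adh4, Adh5, Adh6, Aldh2, Aldh1b1, Aldh3a2 and Cyp2e1 in the authors' TPM table (transcript levels corrected for length and brought to 1 common total per sample). Of these 8 symbols, 6 matched 1 entry each among the 32883 entries of the table: Adh5, Adh6, Aldh2, Aldh1b1, Aldh3a2 and Cyp2e1. All 6 were among the 11083 entries that reached 1 TPM in 5 or more of the 10 samples and so were tested. No entry carries the symbol Adh1 or Adh4, and these genes are not analysed here under those names.

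Poly(A) RNA was sequenced from livers of male rats aged 5 weeks, in 5 samples of EHBR and 5 of SD, each set numbered from 1 to 5, with no treatment given in the labels. EHBR is a mutant line derived from SD rats that lacks the canalicular export pump Mrp2, encoded by Abcc2. SD is the stock it is compared with, and every other genetic difference between the animals goes together with the loss of Mrp2. The labels do not say whether animals were littermates, so p-values reflect no more than the scatter among the samples at hand, which may be technical. In bulk liver, fewer cells of a type and less RNA per cell cannot be told apart.

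Liver is the main site of ethanol oxidation. Cytosolic alcohol dehydrogenases turn ethanol into acetaldehyde with NAD+ as the electron acceptor, with class I enzymes, encoded by Adh1, as the main form at low ethanol. Cyp2e1, a cytochrome P450 of the endoplasmic reticulum, does the same with NADPH and oxygen and is known for its induction by ethanol and for oxidising paracetamol. Acetaldehyde is then oxidised to acetate by aldehyde dehydrogenases, chiefly by the mitochondrial enzyme Aldh2.

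Reads assigned to genes numbered 13794181 to 17644759 per EHBR sample and 15619277 to 19601572 per SD sample. Abcc2 was at 10.1 to 17.6 TPM in EHBR livers and at 60.0 to 271 TPM in SD livers, with no overlap, so the strain labels and the gene went together. Hepatocyte markers such as Alb, Apoa1 and Ttr summed to 162858 to 186215 TPM in EHBR and 141612 to 175197 TPM in SD, and none of those 8 genes passed the test described below (limma, 2 at an unadjusted p under 0.05, and 0 with voom on recovered reads). Of marker lists for other cells, the sinusoidal endothelium list had 2 of 6 genes higher in EHBR and none lower, and a sum, with Lyve1 the most abundant, of 88.8 to 117 TPM in EHBR and 61.3 to 82.3 TPM in SD. Erythroid markers, with Hba-a1 the most abundant, summed to 1325 to 3308 TPM in EHBR and 981 to 2047 TPM in SD, and 1 of 5, Slc4a1, was higher in EHBR. No tested marker of Kupffer cells, stellate cells, cholangiocytes, lymphocytes or gut passed (limma, 4 at an unadjusted p under 0.05 in all, and 0 with voom). Tested were 8 of 8 listed for Kupffer cells, 8 of 8 for stellate cells, 2 of 6 for cholangiocytes, 3 of 7 for lymphocytes and 2 of 7 for gut. Pancreas and kidney markers were at or near 0, summing to at most 0.127 TPM in EHBR and 0.404 TPM in SD. Samples 4 and 5 of either strain set themselves apart from samples 1 to 3 in many genes, a division seen in the data and not given in the labels; with a term for it, 1878 entries passed the strain test, against 604 without it. Strain differences of the 6 entries are therefore also given within each side, as are those of other called genes where a side moved the value by over 1.5 times.

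What the entry labelled Adh6 holds has to be settled before its values. In the files it lies on chromosome 2 from 243550627 to 243687857 (build rn6, plus strand), a span of 137.2 kb, and it encloses the whole of the entry Adh6a. It carries the Entrez gene ID that RefSeq gives to Adh1c, the gene with the older names Adh and Adh1, and no entry carries the ID of Adh6 itself. In RefSeq the genes run in the order Adh7, Adh1c, Adh6a, Adh6, Adh4, Adh5 and Metap1, with spans of 11.6 kb for Adh1c and 31.7 kb for Adh6. Since it encloses Adh6a and bears the name of one neighbour and the ID of the other, the entry is taken to cover both Adh1c and Adh6. Its reads cannot be divided between them here.

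The entry labelled Adh5, from 243700784 to 243740899 on the same strand, spans 40.1 kb, against 12.4 kb for Adh5 in RefSeq. Between it and the entry labelled Adh6 lies a gap of 12.9 kb with no other entry, which is shorter than the 18.0 kb that RefSeq gives to Adh4. Adh4 stands between Adh6 and Adh5. In RefSeq (build GRCr8) the last bases before Adh1c, Adh4 and Adh5 are 229470702, 229622091 and 229648556. With Adh1c set at the start of the entry labelled Adh6, Adh4 falls inside the entry labelled Adh5. This holds if gene order, spans and distances are alike in both builds, and the exons counted were not checked. Values of both entries are therefore given for the entry and not for a single enzyme.

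**Figure D1:**
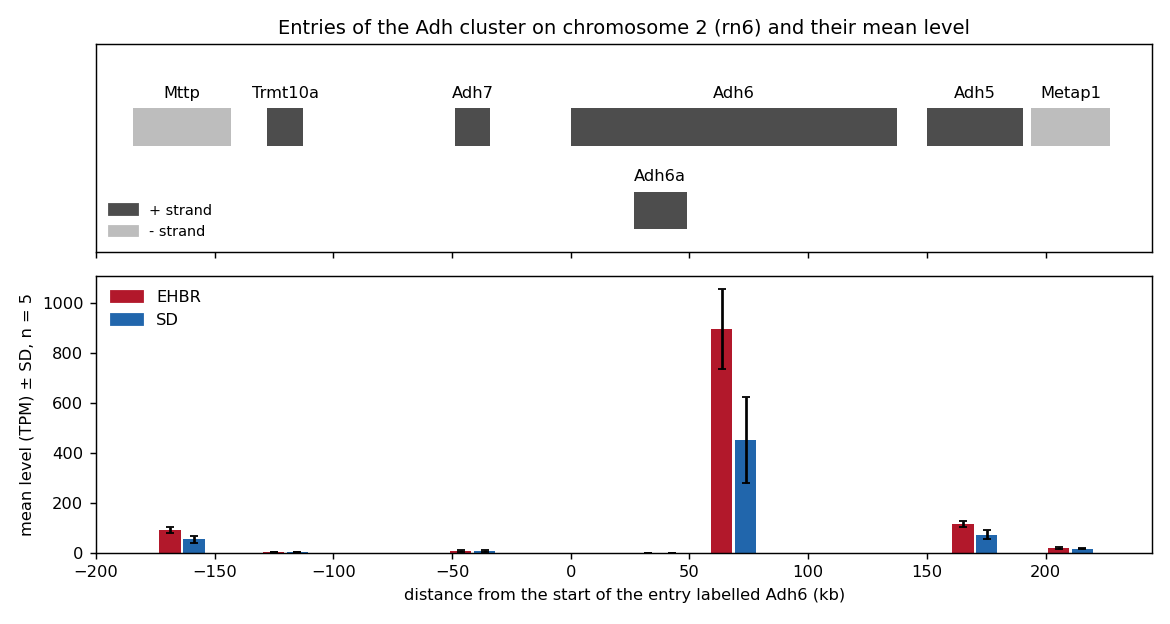
Entries of the Adh cluster in the authors' table. The upper part draws each entry by its distance in kb from the start of the entry labelled Adh6 (dark, plus strand; light, minus strand), and the lower part gives the mean TPM ± SD of 5 EHBR and 5 SD samples at each entry's middle; the entries RGD1309170 and U1, at or near 0, are not drawn. The entry labelled Adh6, at 894 TPM in EHBR and 449 TPM in SD, spans 137.2 kb and encloses Adh6a, which was near 0 in all 10 samples.

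The promoters of these genes are shown so that the genes that the Adh entries may hold, and Aldh3a2, can be set beside Cyp2e1, which did not pass the test. They are the 250 bases before each gene's start, 5′ to 3′, from RefSeq (build GRCr8, which differs from the build of the files). Capitals mark matches on either strand to 3 short motifs. The TATA box was searched as TATAAA. The CCAAT box was searched by the 5 letters of its name. The letters searched for the GC box were GGGCGG. No letters of one motif overlap another's in the sequences shown. The promoter table held 7 of the 8 genes looked for, all but Aldh2, and the promoter of Aldh1b1 is not printed.
Adh1c promoter, GRCr8 chr2:229470453-229470702, plus strand: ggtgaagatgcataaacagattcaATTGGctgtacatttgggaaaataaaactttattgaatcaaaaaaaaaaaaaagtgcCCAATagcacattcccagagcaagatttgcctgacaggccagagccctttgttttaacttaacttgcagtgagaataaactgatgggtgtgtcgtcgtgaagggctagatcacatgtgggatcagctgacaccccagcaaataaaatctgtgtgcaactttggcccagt
Adh6 promoter, GRCr8 chr2:229576386-229576635, plus strand: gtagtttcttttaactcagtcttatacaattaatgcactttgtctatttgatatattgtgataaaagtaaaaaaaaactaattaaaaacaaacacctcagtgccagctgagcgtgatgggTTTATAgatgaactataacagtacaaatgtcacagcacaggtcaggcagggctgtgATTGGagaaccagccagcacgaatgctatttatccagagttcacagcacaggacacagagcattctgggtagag
Adh4 promoter, GRCr8 chr2:229621842-229622091, plus strand: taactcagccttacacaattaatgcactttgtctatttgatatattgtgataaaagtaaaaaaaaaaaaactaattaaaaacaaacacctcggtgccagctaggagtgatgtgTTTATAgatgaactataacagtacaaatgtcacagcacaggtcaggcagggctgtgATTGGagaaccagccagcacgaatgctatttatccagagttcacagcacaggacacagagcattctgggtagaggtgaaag
Adh5 promoter, GRCr8 chr2:229648307-229648556, plus strand: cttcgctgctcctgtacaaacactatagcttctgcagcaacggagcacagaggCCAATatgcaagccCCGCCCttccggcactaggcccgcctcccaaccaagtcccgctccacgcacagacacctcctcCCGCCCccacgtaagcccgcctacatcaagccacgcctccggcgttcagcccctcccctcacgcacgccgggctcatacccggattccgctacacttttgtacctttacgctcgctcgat
Aldh3a2 promoter, GRCr8 chr10:46448336-46448585, minus strand: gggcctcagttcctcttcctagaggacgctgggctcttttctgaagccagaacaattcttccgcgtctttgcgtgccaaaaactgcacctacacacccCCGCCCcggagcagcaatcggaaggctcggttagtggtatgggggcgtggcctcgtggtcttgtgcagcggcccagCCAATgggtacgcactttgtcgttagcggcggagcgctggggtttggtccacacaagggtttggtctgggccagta
Cyp2e1 promoter, GRCr8 chr1:205269717-205269966, plus strand: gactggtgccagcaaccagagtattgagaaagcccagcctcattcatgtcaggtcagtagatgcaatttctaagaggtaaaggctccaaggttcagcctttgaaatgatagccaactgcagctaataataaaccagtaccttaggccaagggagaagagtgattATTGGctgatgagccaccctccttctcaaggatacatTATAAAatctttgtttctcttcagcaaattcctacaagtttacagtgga

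The promoters of Adh6 and Adh4 were near copies of each other, with 232 of 239 aligned bases identical, or 97.1%. Whether their transcripts are as alike was not examined, and since reads of near-identical copies can be split or lost in counting, the division of reads between Adh4 and its neighbours is uncertain. The promoters of Adh1c, Adh6 and Adh4 were poor in G and C, at 41.2%, 38.8% and 39.2%, against a median of 51.2% over 33469 promoters. Those of Adh5 and Aldh3a2 were rich in them, at 62.4% and 60.0%, and held 2 and 1 GC boxes. That of Aldh1b1, which did not pass the test and is not printed, was at 57.6% and held no GC box. Of all promoters in the table, 30.5% held a GC box in the same window. Adh6, Adh4 and Cyp2e1 each had 1 TATA box, a motif found in 12.9% of all promoters. A CCAAT box, found in 34.0%, was present in all 6 shown and in Aldh1b1. Such matches describe the letters only.

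Differences between strains were tested with limma on log2(TPM + 1), EHBR minus SD, with Benjamini-Hochberg adjustment over all 11083 entries and a threshold of 0.05. Of the 6 entries, 3 were higher in EHBR, those labelled Adh6 and Adh5 and Aldh3a2, where 3.82% of all entries tested were called higher. None was lower, where 1.63% of all were, and none was lower at an unadjusted p under 0.05 (limma) or with voom on recovered reads. The same 3 entries were those in which every EHBR sample lay above every SD sample, as did 6.45% of all entries. This holds in TPM: in the deposited FPKM the entry labelled Adh5 alone stayed without overlap, and the lowest EHBR and highest SD values were 450 and 451 for the entry labelled Adh6 and 134 and 138 for Aldh3a2. The median log2 difference of the 6 was 0.41, against 0.15 for all entries tested. That shift of the whole table depends on the scaling: 70.0% of all calls were higher in EHBR with TPM, and 42.0% when sample medians were set equal (median centring).

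The entry labelled Adh6, which carries the ID of Adh1c, a gene of the class I enzymes, had 921, 737, 762, 1141 and 910 TPM in EHBR samples 1 to 5, against 194, 401, 443, 641 and 568 TPM in SD samples 1 to 5. In TPM every EHBR sample was above every SD sample, and in both strains the sample numbered 4 was the highest. The mean was 894 ± 161 TPM in EHBR and 449 ± 172 TPM in SD (SD, n = 5 per strain), a fold of 1.99. The log2 difference was 1.08 (SE 0.28, 95% interval 0.48 to 1.69, adjusted p = 0.0443, limma). Within samples 1 to 3 it was 1.30, and within samples 4 and 5 it was 0.75. With a term for that division the entry was called at the same difference, 1.08 (adjusted p = 0.00774, limma). SD 1 had the lowest value of all 10 samples, and without it the log2 difference was 0.81 (adjusted p = 0.0269). The call was lost without any 1 of the 5 EHBR samples and without SD 2 or SD 3 (adjusted p = 0.0625 to 0.103, limma), with deposited FPKM at 0.99 (adjusted p = 0.109, limma) and after median centring at 0.91 (adjusted p = 0.194, limma).

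The entry labelled Adh5 carries the ID of Adh5, the class III dehydrogenase. That enzyme oxidises the glutathione adduct of formaldehyde, reduces S-nitrosoglutathione and has little activity on ethanol. By position the entry may also hold Adh4, so its values need not be those of the class III enzyme alone. The entry had 129, 120, 123, 100 and 101 TPM in EHBR samples 1 to 5, against 47.0, 73.5, 95.8, 77.0 and 63.9 TPM in SD samples 1 to 5. The strains did not overlap, with SD 3 closest to the EHBR samples and SD 1 farthest below. The mean was 115 ± 13.3 TPM in EHBR and 71.4 ± 17.9 TPM in SD (SD, n = 5 per strain), and the log2 difference was 0.70 (SE 0.17, 95% interval 0.34 to 1.07, adjusted p = 0.0310, limma). Samples 1 to 3 gave 0.83 and samples 4 and 5 gave 0.51. With a term for that division the entry was called at the same difference, 0.70 (adjusted p = 0.0159, limma). The call was lost without EHBR 1, 2 or 3 or SD 5 (adjusted p = 0.0648 to 0.0850, limma), with deposited FPKM at 0.61 (adjusted p = 0.0584, limma) and after median centring at 0.53 (adjusted p = 0.135, limma).

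Cyp2e1, on chromosome 1 from 213511874 to 213535542, was the most abundant of the 6 on average in both strains. It had 1443, 1199, 1361, 911 and 1175 TPM in EHBR samples 1 to 5, against 854, 1564, 1188, 1506 and 1189 TPM in SD samples 1 to 5. The strains overlapped throughout, and the lowest and the highest value were both in SD livers. The log2 difference was -0.04 (SE 0.18, adjusted p = 0.922, limma), with a 95% interval of -0.42 to 0.35. Its sign turned between the sides of the division, at 0.19 among samples 1 to 3 and -0.37 among samples 4 and 5.

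**Figure D2:**
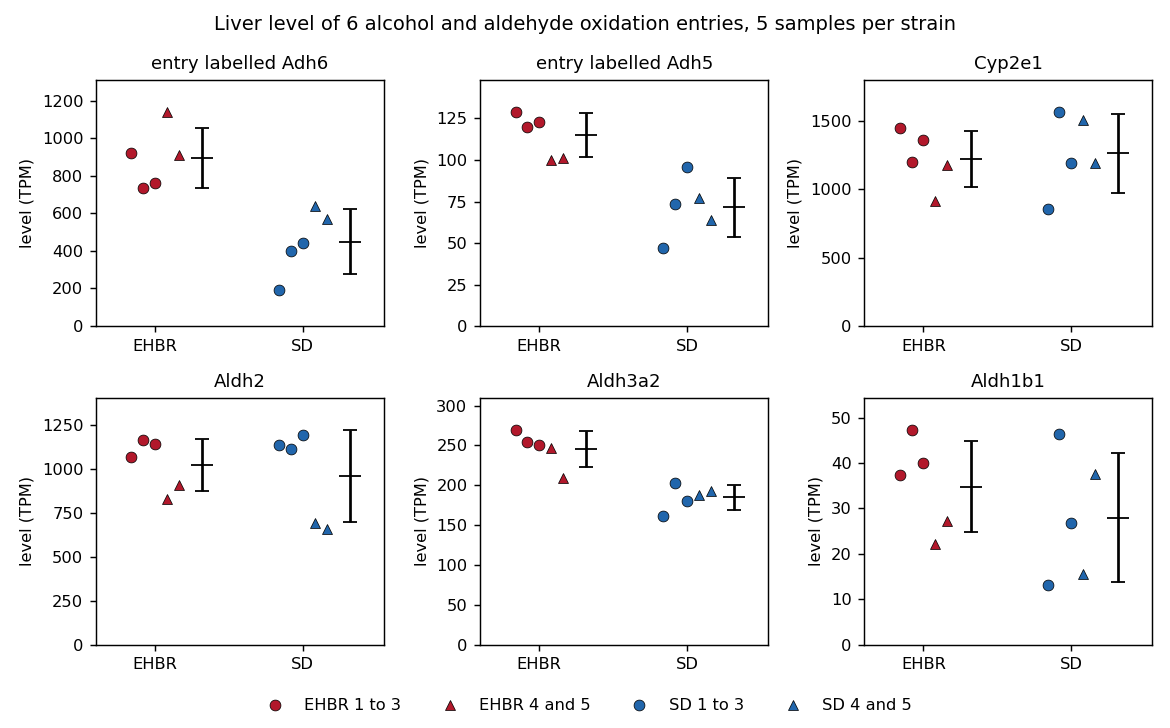
Level of each entry in TPM (linear axis from 0) in 5 EHBR and 5 SD livers. Circles are samples 1 to 3, triangles samples 4 and 5, and the bars beside them the mean ± SD. For the entries labelled Adh6 and Adh5 and for Aldh3a2 all EHBR points lie above all SD points, and for Aldh2 the triangles lie below the circles in both strains.

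Aldh2, the mitochondrial enzyme that clears most acetaldehyde, on chromosome 12 from 40466495 to 40498752, had 1069, 1163, 1138, 825 and 910 TPM in EHBR samples 1 to 5, against 1136, 1112, 1191, 689 and 658 TPM in SD samples 1 to 5. In each strain samples 4 and 5 were below samples 1 to 3 with no overlap, while the strains overlapped. The means on the side of samples 1 to 3 were 1123 TPM in EHBR and 1146 TPM in SD, and on the side of samples 4 and 5 they were 867 TPM in EHBR and 673 TPM in SD. The log2 difference over all samples was 0.13 (SE 0.19, 95% interval -0.29 to 0.54, adjusted p = 0.714, limma), close to the shift of the whole table, and it was -0.04 after median centring. Within samples 1 to 3 it was -0.03 and within samples 4 and 5 it was 0.36, and whether these differ was not tested.

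Aldh3a2, the fatty aldehyde dehydrogenase of the endoplasmic reticulum, acts on long-chain aldehydes from lipid breakdown, and its loss in people causes Sjögren-Larsson syndrome. It lies on chromosome 10 from 47525493 to 47546345, minus strand. It had 269, 255, 251, 247 and 209 TPM in EHBR samples 1 to 5, against 162, 203, 180, 188 and 193 TPM in SD samples 1 to 5. In TPM the strains did not overlap, with EHBR 5 and SD 2 next to each other at the border. The mean was 246 ± 22.6 TPM in EHBR and 185 ± 15.6 TPM in SD (SD, n = 5 per strain), and the log2 difference was 0.41 (SE 0.09, 95% interval 0.20 to 0.62, adjusted p = 0.0269, limma). Samples 1 to 3 gave 0.51 and samples 4 and 5 gave 0.26. With a term for that division Aldh3a2 was called at the same difference, 0.41 (adjusted p = 0.00982, limma). The call was lost without EHBR 1, 2, 3 or 4 or SD 1 or 3 (adjusted p = 0.0519 to 0.0834, limma), with deposited FPKM at 0.31 (adjusted p = 0.0982, limma) and after median centring at 0.24 (adjusted p = 0.379, limma).

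Aldh1b1, a mitochondrial relative of Aldh2 that also accepts acetaldehyde, lies on chromosome 5 from 61382351 to 61387358 and was the least abundant and the most scattered of the 6. It had 37.4, 47.2, 39.9, 22.1 and 27.2 TPM in EHBR samples 1 to 5, against 13.1, 46.5, 26.7, 15.6 and 37.5 TPM in SD samples 1 to 5. The strains overlapped. The log2 difference was 0.41 (SE 0.33, adjusted p = 0.489, limma), the same size as for Aldh3a2 with a far wider 95% interval, -0.31 to 1.14. Reads behind it numbered 331 to 1149 per sample, which gives a counting error of at most 5.50%, well under the spread between samples.

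**Figure D3:**
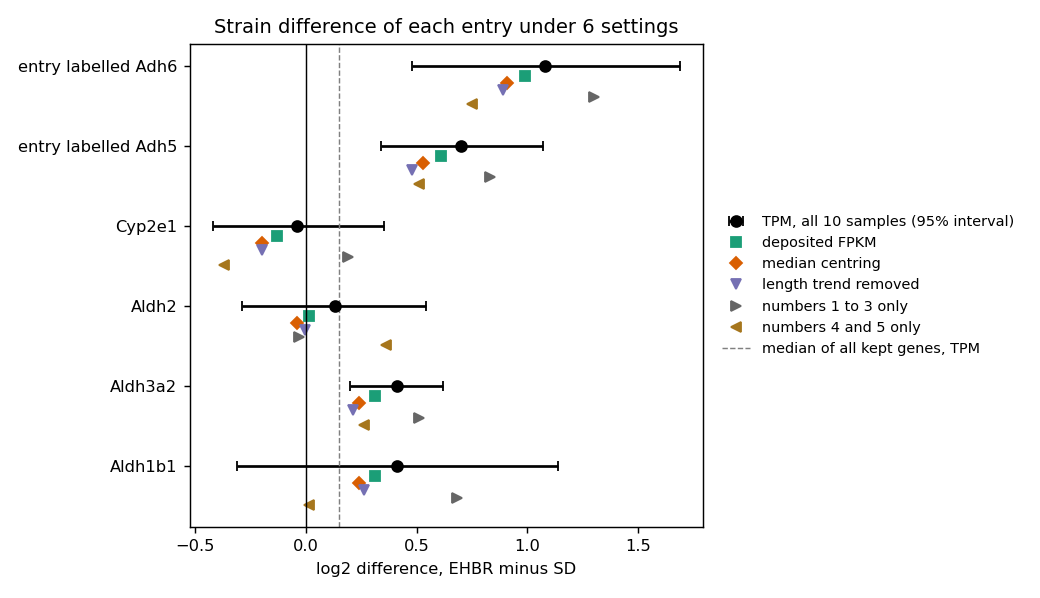
Log2 difference, EHBR minus SD, of each entry, in TPM over all 10 samples (black, with its 95% interval) and under 5 other settings (coloured). The dashed line is the median of all entries tested in TPM, 0.15. The points of the entries labelled Adh6 and Adh5, Aldh3a2 and Aldh1b1 lie to the right of 0 under every setting drawn. The interval of Aldh1b1 crosses 0, and the points of Cyp2e1 and Aldh2 lie on either side of it.

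The order of levels was Cyp2e1, Aldh2, Adh6, Aldh3a2, Adh5 and Aldh1b1 in both strains by mean TPM, with Adh6 and Adh5 standing for the entries so labelled. In EHBR livers Cyp2e1 exceeded Aldh2 in 5 of 5 samples, although their ranges overlapped, and Aldh2 exceeded the entry labelled Adh6 in 3 of 5. In SD livers Aldh2 exceeded that entry in 5 of 5 samples with no overlap, and Cyp2e1 exceeded Aldh2 in 3 of 5. The ratio of the entry labelled Adh6 to Aldh2, a comparison of per-length levels chosen after the values were seen, was 0.862, 0.634, 0.670 and 1.38 in EHBR samples 1 to 4, with EHBR 5 level at 910 TPM for both, against 0.170, 0.361, 0.372, 0.931 and 0.864 in SD samples 1 to 5. It was higher in EHBR within samples 1 to 3 and within samples 4 and 5, and the strains overlapped when both sides were pooled. Order and ratio rest on the lengths, recovered as 3202 bases for the entry labelled Adh6 and 1876 for Aldh2. In reads that entry exceeded Aldh2 in every EHBR sample and in SD 4 and 5, and lay below it in SD 1 to 3. SD 1 was the lowest SD sample for 5 of the 6 entries, all but Aldh2.

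Some genes outside the pathway had a profile over the 10 samples close to that of the entries that rose, measured as the root-mean-square difference of values scaled to mean 0 and SD 1. The nearest named gene was Tmem135 for the entry labelled Adh6, with a difference of 0.21 where the median gene had 1.31. For the entry labelled Adh5 it was Phc1 at 0.29 (median 1.11), and for Aldh3a2 it was Fh, the fumarate hydratase gene, at 0.20 (median 1.12). Each is the smallest difference found among all named genes tested, so its distance from the median is no measure of closeness. The scaled values also hold the strain difference by which the entries were called. Tmem135, Phc1 and Fh did not pass the strain test (adjusted p = 0.142, 0.140 and 0.0729, limma), with log2 differences of 0.34, 0.38 and 0.34.

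The neighbours of the cluster were mixed. Among them, named here after their values were seen, Mttp, which loads lipid onto lipoproteins, was higher in EHBR at 92.3 ± 11.6 TPM, against 55.0 ± 13.9 TPM in SD (SD, n = 5 per strain, log2 difference 0.77, adjusted p = 0.0240, limma). That call was lost without EHBR 2, 4 or 5 or SD 1 (adjusted p = 0.0534 to 0.0652, limma), with deposited FPKM and after median centring. Trmt10a and Metap1, which lie nearer to the Adh entries, had log2 differences of 0.29 and 0.15 (adjusted p = 0.264 and 0.583, limma). Adh7, the class IV enzyme best known from stomach, lies beside the entry labelled Adh6 and had 7.59 ± 3.09 TPM in EHBR and 5.79 ± 4.20 TPM in SD (log2 difference 0.45, adjusted p = 0.489, limma). The entry Adh6a had at most 3 reads in any sample.

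Of 6 genes of other routes by which liver oxidises ethanol, among them Adh7, catalase and the electron donors of P450 enzymes, none was called (limma, 2 at an unadjusted p under 0.05, and 0 with voom on recovered reads), and the median log2 difference was 0.20. The most abundant, Cyb5a, which passes electrons to P450 enzymes, had 1332 ± 152 TPM in EHBR and 1649 ± 228 TPM in SD (log2 difference -0.30, adjusted p = 0.169, limma). With a term for the division of samples it was called lower at the same difference (adjusted p = 0.00901, limma), and samples 1 to 3 and samples 4 and 5 gave -0.29 and -0.33. Named outside the rule, catalase (Cat), which oxidises ethanol with hydrogen peroxide, had 1466 ± 47.5 TPM in EHBR and 1345 ± 152 TPM in SD, a log2 difference of 0.13 that became -0.04 after median centring. Por, the P450 reductase that Cyp2e1 needs, was scattered from 63.8 to 290 TPM in EHBR and from 90.1 to 232 TPM in SD.

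Of 5 genes tested of 6 on a list of acetate use and acetyl-CoA, 2 rose and 1 fell. Acss2, which joins acetate to coenzyme A in the cytosol, had 49.6 to 82.5 TPM in EHBR and 23.7 to 38.6 TPM in SD (log2 difference 0.88, adjusted p = 0.00770, limma), and Acly, which makes cytosolic acetyl-CoA from citrate, differed by 1.49. Of the other Acss genes on the list, Acss1 was below the filter. Acss3, named after its value was seen, had a log2 difference of 0.14 (adjusted p = 0.627, limma), or -0.025 after median centring. Acat1, a mitochondrial thiolase, fell by 0.41 on the log2 scale (adjusted p = 0.0487, limma), a call that only leaving out SD 2 preserved among the 10 left-out samples (adjusted p = 0.0632 to 0.111 without each of the others, limma) and that was lost with deposited FPKM, where the difference was -0.49, and after median centring, where it was -0.58. Samples 1 to 3 gave -0.22 and samples 4 and 5 gave -0.70 for it.

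Among other aldehyde dehydrogenases, 4 of 12 tested of 17 listed rose and none fell, with a median log2 difference of 0.21. They were Aldh1l1 and Aldh1l2, which oxidise formyl groups carried by folate in the cytosol and in mitochondria, Aldh1a7, a relative of the retinal dehydrogenase Aldh1a1, and Aldh9a1, which acts on aminoaldehydes. Aldh1l1 had 151 ± 31.0 TPM in EHBR and 76.6 ± 7.72 TPM in SD (log2 difference 0.95, adjusted p = 0.00222, limma), and Aldh1l2 differed by 0.94. Aldh1a7 had 49.7 to 93.1 TPM in EHBR and 0.282 to 16.2 TPM in SD, a log2 difference of 3.52. Samples 1 to 3 gave 2.03 for Aldh1a7 and samples 4 and 5, where SD livers were under 1 TPM, gave 5.77. The call of Aldh9a1, at 0.59 (adjusted p = 0.0467, limma), was lost without any EHBR sample or SD 1, 4 or 5 (adjusted p = 0.0766 to 0.112, limma), with deposited FPKM and after median centring, and the sides gave 0.30 in samples 1 to 3 and 1.02 in samples 4 and 5. Formaldehyde and formate handling, the pathway around Adh5, had 3 of 7 genes higher and none lower: Aldh1l1 again, Sardh, which releases formaldehyde from sarcosine, with a log2 difference of 0.49, and Mthfd1, a folate enzyme that uses formate, with 0.71. Sardh lost its call after median centring at 0.32 (adjusted p = 0.279, limma). These lists were chosen with earlier results known, and of all entries tested 3.82% were called higher and 1.63% lower.

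Aldehyde reductases and oxidases went both ways, with 1 of 12 tested of 13 higher and 2 lower. Akr7a3, the aflatoxin aldehyde reductase, had 377 ± 47.4 TPM in EHBR and 193 ± 55.1 TPM in SD (log2 difference 0.99, adjusted p = 0.00573, limma). Aox3, an aldehyde oxidase, had 0.664 to 0.855 TPM in EHBR and 1.59 to 17.7 TPM in SD, and Dcxr, a carbonyl reductase, fell by 0.39 on the log2 scale. The log2 difference of Aox3 was -3.30 in samples 1 to 3 and -0.76 in samples 4 and 5. The call of Aox3 was lost without any EHBR sample or SD 1, 2 or 3 (adjusted p = 0.0507 to 0.0683, limma), and that of Dcxr without EHBR 1 to 4 or SD 1 to 4 (adjusted p = 0.0575 to 0.0973, limma). Of 7 retinol dehydrogenases tested of 12, none passed (limma, 2 at an unadjusted p under 0.05, and 0 with voom), and the most abundant, Dhrs3, had 97.9 ± 8.80 TPM in EHBR and 101 ± 7.50 TPM in SD.

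**Figure D4:**
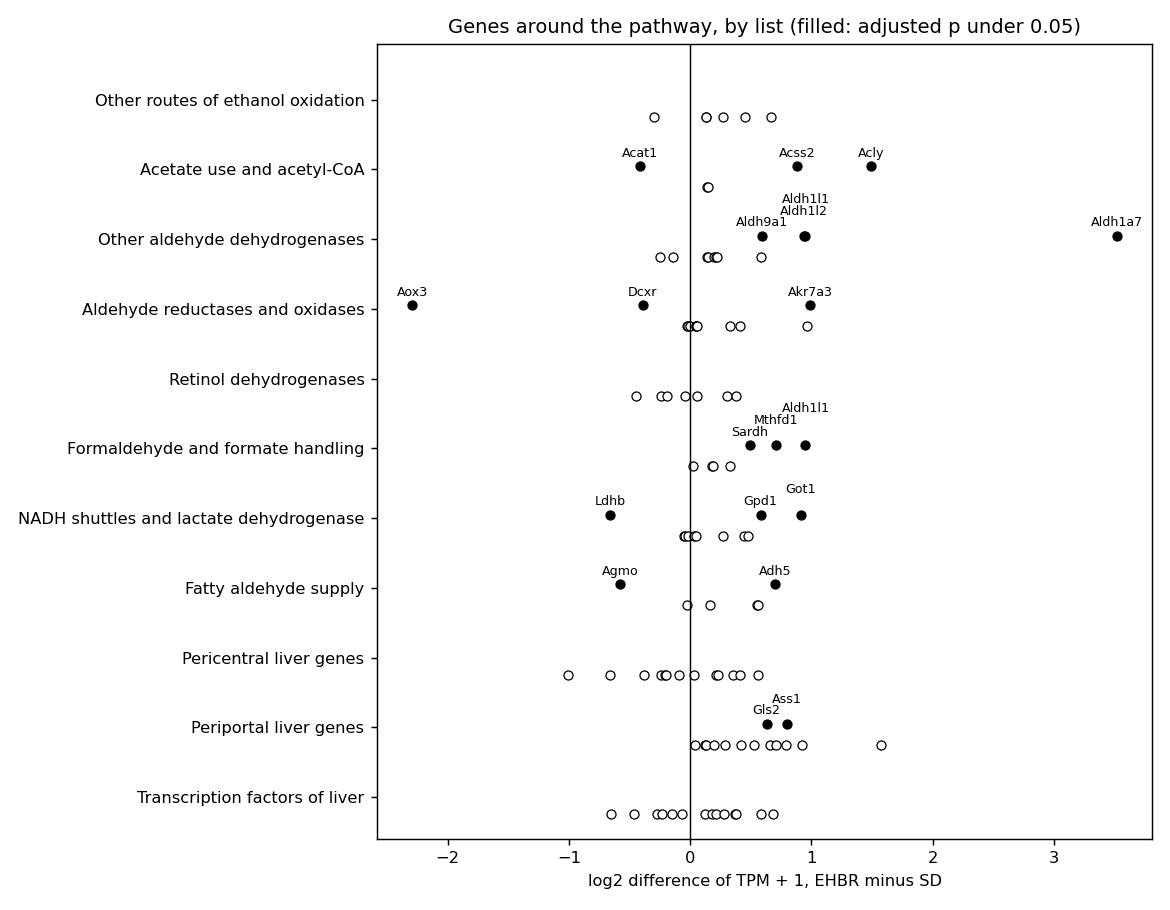
Log2 difference of TPM + 1, EHBR minus SD, of each gene tested in 11 lists around the pathway. Filled points with a symbol passed the test and open points below them did not. The lists of other ethanol routes, retinol dehydrogenases, pericentral genes and transcription factors hold no filled point, and Aldh1a7 at 3.52 and Aox3 at -2.29 are the outermost of those that passed.

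Reoxidation of the NADH that ethanol breakdown makes depends on shuttles between cytosol and mitochondria. Of 11 genes, 2 rose and 1 fell. Got1, the cytosolic aspartate aminotransferase, had 93.5 ± 24.2 TPM in EHBR and 48.3 ± 6.12 TPM in SD (log2 difference 0.91, adjusted p = 0.00573, limma). Gpd1, the cytosolic glycerol phosphate dehydrogenase, rose by 0.58, a call lost without EHBR 1 or 2 or SD 1 or 4 (adjusted p = 0.0535 to 0.0589, limma), with deposited FPKM and after median centring, and Ldhb, a lactate dehydrogenase subunit of low level here, fell by 0.66, a call that only leaving out EHBR 4 preserved among the left-out samples (adjusted p = 0.0502 to 0.124, limma). After median centring the difference of Ldhb was larger, at -0.83, and its call was lost (adjusted p = 0.0581, limma). Of 6 genes tested of 7 around the supply of fatty aldehydes to Aldh3a2, Agmo fell. The only one that rose was the entry labelled Adh5, already counted among the members. Agmo, which cleaves ether lipids to fatty aldehydes, had 94.9 ± 6.08 TPM in EHBR and 143 ± 23.2 TPM in SD (log2 difference -0.58, adjusted p = 0.0122, limma), with -0.78 in samples 1 to 3 and -0.28 in samples 4 and 5.

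Cyp2e1 is a pericentral gene, so genes known for one zone of the lobule were set beside it. Of 13 pericentral genes tested of 14, none passed (limma, 5 at an unadjusted p under 0.05, and 1 called with voom), with a median log2 difference of -0.09. The most abundant, Rgn, had 718 ± 70.6 TPM in EHBR and 944 ± 179 TPM in SD (adjusted p = 0.126, limma) and passed as lower after median centring (log2 difference -0.55, adjusted p = 0.0448, limma). Rgn also passed in samples 1 to 3 alone, at -0.61 (adjusted p = 0.0238, limma), and was at -0.03 in samples 4 and 5. Of 14 periportal genes, 2 rose and none fell, with a median of 0.58. Ass1, of the urea cycle, had 1560 to 2035 TPM in EHBR and 804 to 1115 TPM in SD (log2 difference 0.80, adjusted p = 0.00204, limma), and Gls2, a glutaminase, rose by 0.63, a call lost without EHBR 1, 2 or 3 or SD 1 or 4 (adjusted p = 0.0557 to 0.0781, limma), with deposited FPKM and after median centring.

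Of 14 liver transcription factors, some of them known to act on Adh and Cyp2e1 promoters, none passed (limma, 2 at an unadjusted p under 0.05, and 0 with voom), and Cebpa, the most abundant, had 225 ± 22.5 TPM in EHBR and 206 ± 60.4 TPM in SD. Of 6 sinusoidal endothelium markers tested of 7, Stab2 and Kdr rose, by 0.92 and 0.66 on the log2 scale (adjusted p = 0.00673 and 0.00916, limma), and Kdr lost its call after median centring. Their part in the differences of the Adh entries and Aldh3a2 was not tested.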

How the data were processed

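Per the labels' protocols, total RNA was taken up in TRIzol, selected for poly(A) tails and turned into strand-marking libraries. Per the submitters' processing notes, the tools were HISAT2 2.1.0, Trimmomatic 0.38, FastQC 0.11.7 and featureCounts 1.6.3, with rn6 as the build, and neither roles nor settings are given; the sources used here do not give the strand setting of the counting. The authors deposited TPM, FPKM (reads scaled by length and library total) and upper-quartile FPKM for 32883 entries, with 1 column per sample. Members and gene lists were chosen with earlier results of these data known. Strain and sample number were read from the titles.

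The test was limma 3.58.1 (R 4.3.3) with trend on log2(TPM + 1), two-sided, with strain as its 1 factor. A difference on this scale understates the change of low genes. On values simulated for 11083 genes, 48% of 50 genes shifted by 0.5 (log2) and 88% of 50 shifted by 1 were called, with 12 false calls; the simulated spread left out the division between samples 1 to 3 and 4 and 5, so these shares can overstate what the test finds. Whole reads and lengths were recovered from the upper-quartile FPKM (tolerance 0.0002 reads), and they gave the depth, the length trend and the voom alternative, which was chosen after seeing the data. Counting error covers reads only. No pair of samples of 1 strain agreed within sampling noise, the lowest chi-square per gene being 9.63.

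Genes named are all members, Abcc2, and from each list the called genes lowest in adjusted p (at most 3), or, in a list without calls, its most abundant gene, plus the nearest profile of each called member; 10 further genes were named after their values were seen. Of 186 distinct list symbols, 178 matched. In all, 28 alternatives were tried. Tables and figures were made in Python 3.11.15 (numpy 2.4.6, pandas 2.3.3, matplotlib 3.10.9, scipy 1.17.1). Promoters are from RefSeq.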

Additional observations from a re-analysis of the deposited data

Results flagged for a closer look

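Within a strain, 5 values stood apart from the other samples by Dixon's test at the 95% level, which flags about 1 in 20 groups by chance; 76 groups were checked. None concerned the 6 entries described. In EHBR 4, Acly was at 494 TPM where the other EHBR samples had 250 to 317 TPM, Acss2 at 82.5 TPM where the others had 49.6 to 55.9 TPM, and Acat1 at 132 TPM where the others had 153 to 158 TPM. Got1 was at 135 TPM in EHBR 3, where the others had 73.1 to 87.3 TPM. Gpd1 was at 448 TPM in SD 5, where the other SD samples had 312 to 351 TPM.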

How the results depend on the processing

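The number of the 6 entries called higher in EHBR was 3 in the test reported. It was 0 with deposited FPKM, upper-quartile FPKM, median centring, removal of the length trend, samples 4 and 5 alone, the exact permutation test and voom, and 1 without the filter and without the variance trend. Leaving out 1 sample gave 0 to 3 of them. The number called lower was 0 under all 28 alternatives. In the permutation test the smallest p that 5 samples against 5 allow is 0.00794, too large to pass adjustment here. Over all entries the calls numbered 604, with 1011 under sample weights, 1878 with a term for the division of samples, 0 in the permutation test and 381 to 608 when 1 sample was left out. Same-numbered samples correlated at 0.07 to 0.29 in their deviations from the strain mean, so the numbers were not taken as pairs, and 1 of 5 EHBR and 3 of 5 SD samples correlated best with their own number. With the replicate block, 3 of the 6 entries and 861 of all were called, and of the other named genes Acat1 and Aldh9a1 lost their calls (adjusted p = 0.0723 and 0.0518, limma), as did Dcxr by less than the rounding of its p. The differences of the entries labelled Adh6 and Adh5 and of Aldh3a2 stayed positive under the 28 alternatives, at 0.75 to 1.30, 0.48 to 0.83 and 0.21 to 0.51, and were called under 12, 14 and 14 of them, with adjusted p from 0.00648 to 0.194, 0.0100 to 0.167 and 0.00621 to 0.418 (limma, and permutation). Aldh1b1, called under none of the 28, also stayed positive, at 0.01 to 0.68, so a steady sign does not set the called entries apart.

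Signs turned only in differences that no test called. With upper-quartile FPKM, Aldh2 was at -0.056, Cat at -0.033 and Acss3 at -0.019. After median centring, Aldh2 was at -0.042, Cat at -0.038, Metap1 at -0.018 and Acss3 at -0.025. With the length trend removed, Aldh2 was at -0.0041, Cat at -0.039, Metap1 at -0.023 and Acss3 at -0.083. In samples 1 to 3 alone, Aldh2 was at -0.030, Cyp2e1 at 0.19, Cebpa at -0.042 and Cat at -0.010, and in samples 4 and 5 alone Por was at -0.24. Under sample weights Cyp2e1 was at 0.076. With 1 sample left out, Cyp2e1 lay between -0.17 and 0.065 and Dhrs3 between -0.083 and 0.014. The cause was not tested. Of 22 other named genes that were called, 17 were called with deposited FPKM and 14 after median centring. The counting error of the 6 entries was at most 5.50%, which covers assigned reads only. Reads split or lost between near-identical copies are not in it.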
